A study of Mus musculus with 18 samples.

Results

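The transcripts of 10 genes that p53 switches on to arrest the cell cycle or to answer DNA damage were followed through 18 libraries of mouse retinal cells: Cdkn1a, Phlda3, Eda2r, Mdm2, Ccng1, Trp53inp1, Sesn1, Zmat3, Aen and Btg2. They were taken by gene name from both deposited tables, where each was found once, as 10 of 34385 genes in the knockdown table and 10 of 34396 in the overexpression table. They are known targets of p53 and were selected on measured values, with the difference between Nmnat1 knockdown and scramble cells in view. All 10 passed the filter on low values (1 ppm or more in 3 or more libraries of a table), as 22233 and 20725 genes did. Retinas came from the outbred ICR stock of mice and received, by electroporation at postnatal day 0.5, an effector plasmid and an EGFP plasmid. They were cultured as explants for 3 days and EGFP-positive cells were then sorted. In the knockdown table, cells carried a scramble plasmid (libraries C1 to C3), an Nmnat1 knockdown plasmid (N1_1 to N1_3) or an Nmnat2 knockdown plasmid (N2_1 to N2_3). In the overexpression table they carried an empty vector (v1 to v3), an Nmnat1 overexpression plasmid or an Nmnat2 overexpression plasmid (again N1_1 to N2_3). All 6 groups, controls included, thus went through electroporation, EGFP expression and sorting, and each held 3 libraries. A sort on EGFP takes every cell type that the plasmids reached, so a level is a mean over that mixture, and fewer cells of a type cannot be told apart from less RNA per cell. Nmnat1 and Nmnat2 encode enzymes that make NAD, the former in the nucleus and the latter at the Golgi and in axons.

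The transcription factor p53, encoded by Trp53, is held at a low level by Mdm2, a ubiquitin ligase that marks it for degradation. Damaged DNA and other stresses stop that degradation, and p53 then binds a pair of decamers in or near its target genes. Some targets halt the cell cycle, others dampen survival signals, limit oxidative damage or promote death, and Mdm2 itself is a target, which closes a feedback loop. In the newborn retina, progenitors leave the cell cycle to become rods, amacrine cells, bipolar cells and Müller glia, and cell cycle inhibitors and Btg2 are also part of that normal programme.

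Promoter windows of 300 bases, from 250 bases before to 50 after a gene start, were taken from RefSeq (GRCm38.p6) for 8 of the 10 genes, and the p53 half-site consensus, a palindromic decamer, was searched in them on both strands at once. An exact half-site lay in 6 of the 11 windows, against 8.36% of all 32841 windows in the RefSeq table. The 6 windows belong to 5 genes (Cdkn1a, Ccng1, Mdm2, Aen and Sesn1). Those of Aen overlap and share their best match, so the 6 are not separate. The genes are known p53 targets, so this share is no test of them. Against the full site of 20 bases, the best window of Cdkn1a and that of Ccng1 matched at 19 of 20 positions, as 0.0883% of all windows did. The best matches in Phlda3 and Mdm2 were at 15 positions, which 76.6% of all windows reached. The other Cdkn1a window, at another start of the gene, also reached only 15. Best matches in Aen and Sesn1 were at 17 positions, as in 6.29% of all windows. Sites outside the windows were not searched, so a weak match here does not mean that a gene lacks a site. The best windows of Cdkn1a, Ccng1, Phlda3 and Mdm2 are shown. Under Nmnat1 knockdown, Cdkn1a and Phlda3 had the largest differences (log2 fold changes of 2.81 and 2.68). Ccng1 came next, at 0.86, and Mdm2 was at 0.35. The match in these windows and the size of the difference can thus be set side by side, but a relation between them was not tested. Capitals mark the best 20 bases, 5′ to 3′ on the strand of the gene, and a match is a match of letters only.
Cdkn1a, chr17:29090898-29090967, plus strand, capitals starting 51 bases before the start: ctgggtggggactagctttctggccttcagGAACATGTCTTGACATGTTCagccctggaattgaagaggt
Ccng1, chr11:40755442-40755511, minus strand, capitals starting 195 bases before the start: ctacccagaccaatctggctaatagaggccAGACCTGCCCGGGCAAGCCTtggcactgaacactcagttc
Phlda3, chr1:135766012-135766081, plus strand, capitals starting 43 bases before the start: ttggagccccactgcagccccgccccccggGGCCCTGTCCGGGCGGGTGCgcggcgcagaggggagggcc
Mdm2, chr10:117710905-117710974, minus strand, capitals starting 186 bases before the start: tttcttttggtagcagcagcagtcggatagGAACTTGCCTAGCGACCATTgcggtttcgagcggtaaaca

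Levels are given as ppm, parts per 1000000 of a library's summed signal, which is scaled by gene length. In genes with 1 transcript, 1 ppm at a length of 1 kb stood for about 12.8 to 20.9 reads (knockdown libraries) or 11.4 to 16.9 reads (overexpression libraries). Replicates of a group correlated at 0.896 to 0.982 over all genes. Nmnat1 was at 7.80 ± 0.642 ppm in Nmnat1 knockdown cells and 19.0 ± 1.99 in scramble cells. Nmnat2 was low in all libraries of the knockdown table (0.503 to 6.22 ppm). Its scramble libraries (6.22, 0.624 and 2.03 ppm) overlapped those of Nmnat2 knockdown (1.27, 1.01 and 0.503 ppm). Its knockdown could thus not be told apart from the spread of the scramble libraries. In the overexpression arms Nmnat1 reached 19325 ppm and Nmnat2 21581 ppm, from 20.8 and 1.89 in empty vector cells. Library N2_2 of the knockdown table stood apart from N2_1 and N2_3, with summed rod markers of 2508 ppm against 1004 and 989, and the libraries numbered 1 stood apart in the overexpression table. Results are therefore given with and without them. No label tells whether replicate libraries were separate mice or explants, and the p-values below therefore reflect a spread that may be technical.

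The genes covered a wide range of levels. In scramble cells Btg2 was the most abundant at 401 ± 6.36 ppm (SD, n = 3), above every library of the next gene. Sesn1 at 81.5 ± 8.97, Mdm2 at 70.7 ± 20.1 and Aen at 53.8 ± 5.49 followed, with libraries that overlapped between neighbours in this order. Trp53inp1 was at 43.4 ± 5.30 ppm, and Cdkn1a at 22.8 ± 6.46 and Ccng1 at 20.9 ± 4.87 overlapped each other. Phlda3 at 3.96 ± 1.62, Eda2r at 3.31 and Zmat3 at 2.94 ± 1.61 were near the filter and overlapped too, so their values rest on few reads. Empty vector cells gave nearly the same order. In Nmnat1 knockdown cells Cdkn1a stood in the second place, at 162 ± 14.6 ppm, below Btg2 and above all libraries of Sesn1.

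In Nmnat1 knockdown cells all 10 genes had a higher mean than in scramble cells, by amounts that ran from a log2 fold change of 0.32 to 2.81, and Cdkn1a and Phlda3 stood far above the rest. This contrast was in view when the 10 genes were put together, so its values are a description and carry no test. The threshold (limma, Benjamini-Hochberg adjusted p under 0.05) was passed by 2 of the 10, both higher, where 0.144% of all genes passed in either direction and 0.0585% as higher. Nmnat1 knockdown libraries lay above every scramble library for 8 of the 10, where 12.8% of all genes did so, and below for 0, where 12% did. The median of the 10 was 0.68 and that of all genes -0.00. The choice of the genes favoured these counts and this median, so the values for all genes beside them give scale only.

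The mixture of cells differed between the groups. Summed progenitor markers (7 genes) were 408 to 425 ppm in scramble, 177 to 183 in Nmnat1 knockdown and 549, 218 and 541 ppm in Nmnat2 knockdown libraries. Müller glia markers (6 genes) were 4551 to 5227, 2344 to 2463 and 2874, 1966 and 2756 ppm. Rod markers (7 genes) were 2764 to 2960 in scramble and 3219 to 3336 in Nmnat1 knockdown. Thus the Nmnat1 knockdown libraries, where Cdkn1a and Phlda3 were high, had lower progenitor and glial and higher rod sums, and N2_2, the Nmnat2 knockdown library with the highest Cdkn1a, had the lowest progenitor and the highest rod sum of its group. Amacrine markers (6 genes) were 265 to 276 ppm in scramble, 179 to 219 in Nmnat1 knockdown and 618, 269 and 637 in Nmnat2 knockdown libraries, so N2_1 and N2_3, where Btg2, Mdm2, Trp53inp1 and Sesn1 were high, also had the highest amacrine sums. The part of these shifts in the levels of the 10 genes was not tested.

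**Figure D1:**
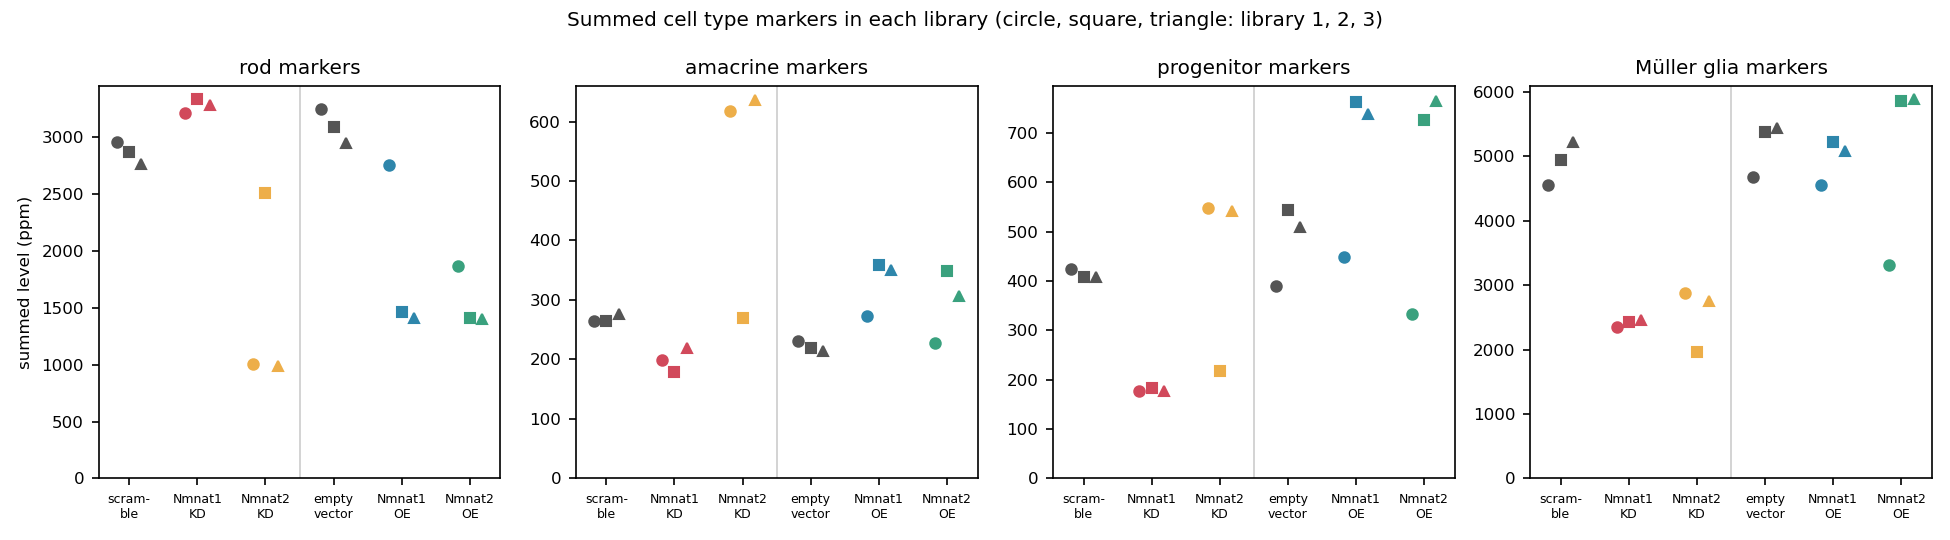
Summed ppm of the rod, amacrine, progenitor and Müller glia markers in each library, on linear axes from 0; groups run from left to right as scramble, Nmnat1 KD and Nmnat2 KD (knockdown table) and empty vector, Nmnat1 OE and Nmnat2 OE (overexpression table), and circles, squares and triangles are libraries 1, 2 and 3. Nmnat1 KD has lower progenitor (177 to 183 ppm) and Müller glia sums than scramble, and the square of Nmnat2 KD (N2_2) lies away from its circle and triangle in every panel.

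Among the genes of arrest, Cdkn1a encodes p21, the inhibitor of cyclin-dependent kinases that carries most of the arrest by p53 (ENSMUSG00000023067.13, chr17:29090976-29100727, GRCm38). It was at 28.8, 23.6 and 16 ppm in the scramble libraries and at 147, 163 and 176 in the Nmnat1 knockdown libraries, a ratio of means of 7.10. The lowest knockdown library was far above the highest scramble library, and the log2 fold change was 2.81 ± 0.42 (SE). Antisense transcripts of an overlapping model, AC167363.2, could not be told apart from those of Cdkn1a, since the library chemistry does not mark the strand. Ccng1 encodes cyclin G1, a partner of a phosphatase that acts on Mdm2. It was at 15.9, 25.6 and 21.1 ppm in scramble and at 37.3, 40.3 and 36.6 in Nmnat1 knockdown libraries (log2 0.86 ± 0.35), with no overlap. Btg2, which slows proliferation and marks progenitors about to divide into neurons, was at 402, 408 and 395 against 509, 491 and 504 ppm. That is a small difference (0.32 ± 0.20) with no overlap and tight libraries in both groups.

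Among the genes that dampen survival or promote death, Phlda3 encodes a small lipid-binding protein that keeps the survival kinase Akt from the membrane (ENSMUSG00000041801.5, chr1:135766119-135769136). Its level was 5.47, 2.25 and 4.16 ppm in scramble and 36, 29.6 and 24.2 ppm in Nmnat1 knockdown libraries, a ratio of means of 7.56 and a log2 fold change of 2.68 ± 0.34. Again no knockdown library came near a scramble library. Eda2r, a receptor of the tumour necrosis factor family, was at 2.64, 4.61 and 2.69 against 3.14, 11.4 and 7.46 ppm (0.84 ± 0.46). Here N1_1 lay inside the scramble range, so the groups overlapped. Aen, an exonuclease that takes part in p53-dependent death, was at 60.1, 50.5 and 50.8 against 74.3, 77.3 and 81.9 ppm (0.53 ± 0.25), without overlap. Trp53inp1, a nuclear protein that promotes the phosphorylation of p53, was at 47.2, 37.3 and 45.6 against 56.8, 61.7 and 65.6 ppm (0.50 ± 0.36). Zmat3, a zinc finger protein that binds RNA, was at 4.38, 1.21 and 3.22 against 6.26, 5.09 and 5.71 ppm (0.85 ± 0.39). For both, the lowest Nmnat1 knockdown library lay above the highest scramble library.

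The feedback and redox genes had small differences in this arm. Mdm2 was at 74.7, 48.9 and 88.5 ppm in scramble and 94, 89.2 and 80.2 ppm in Nmnat1 knockdown libraries (0.35 ± 0.51), and the groups overlapped. Sesn1, a sestrin that restrains growth signalling and helps to restore peroxiredoxins, was at 82.9, 71.9 and 89.7 against 100, 95.1 and 109 ppm (0.32 ± 0.34), with no overlap but a gap smaller than the SD of either group. Without library N2_2, which is not in this contrast but shares its estimate of the spread, 6 of the 10 passed, all higher, where 4.82% of all genes passed as higher. The 6 were Cdkn1a, Phlda3, Ccng1, Trp53inp1, Aen and Btg2. This count too was favoured by the choice of the genes and is a description. Without any one of the 6 libraries compared, or without N2_3, 0 of the 10 passed in limma, so the count rests on the set of libraries, whereas the fold changes of Cdkn1a and Phlda3 stayed between 1.97 and 2.99 in all 17 alternatives tried.

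**Figure D2:**
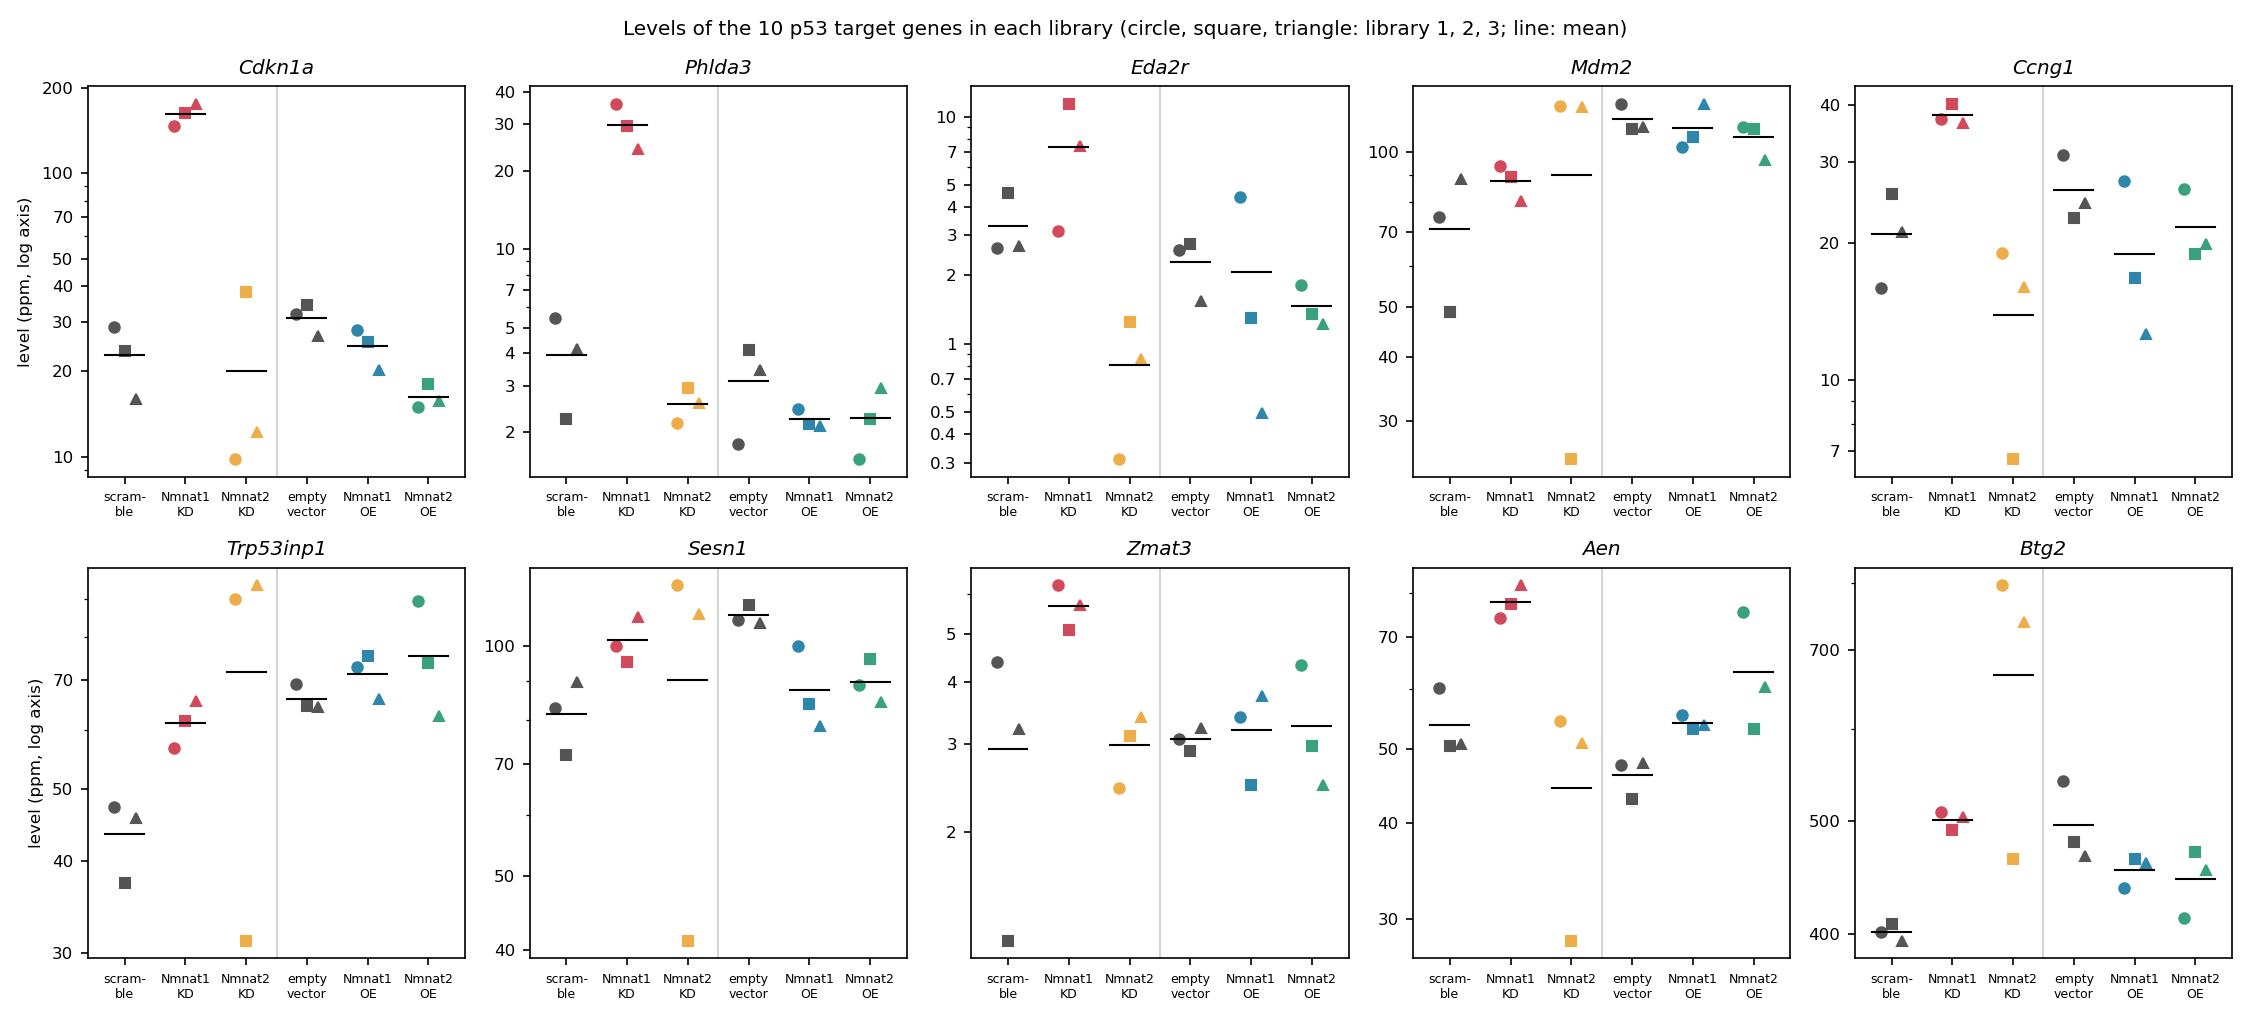
Level of each gene in every library, in ppm on a log axis; the knockdown table (scramble, Nmnat1 KD, Nmnat2 KD) is left of the grey line and the overexpression table (empty vector, Nmnat1 OE, Nmnat2 OE) is right of it, circles, squares and triangles are libraries 1, 2 and 3, and the bar is the mean. Cdkn1a (147 to 176 ppm) and Phlda3 (24.2 to 36 ppm) in Nmnat1 KD lie far above all other groups, and the square of Nmnat2 KD (N2_2) is the lowest point of its table for Mdm2, Ccng1, Trp53inp1, Sesn1 and Aen.

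In Nmnat2 knockdown cells 5 of the 10 genes had a fold change above 0 and 5 below it. In limma 0 of the 10 passed the threshold against scramble, where 0.436% of all genes passed, and 2 had an unadjusted p under 0.05 (Eda2r and Btg2). Both knockdown arms share the scramble libraries, so their values are set side by side only. Cdkn1a was at 9.82, 38 and 12.2 ppm, with N2_2 above and the other libraries below all 3 scramble libraries (log2 -0.39 ± 0.42, limma adjusted p = 0.692). Phlda3 was at 2.17, 2.95 and 2.59 ppm, overlapping the scramble libraries (-0.43 ± 0.34, limma adjusted p = 0.565). Thus the pair that was highest under Nmnat1 knockdown had slightly lower means than scramble here.

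Of the other genes, Eda2r was at 0.311, 1.25 and 0.859 ppm, below every scramble library (-1.26 ± 0.46, limma adjusted p = 0.210), where 17.2% of all genes lay below. Btg2 was at 796, 464 and 741 ppm, above every scramble library (0.69 ± 0.20, limma adjusted p = 0.129), where 4.73% of all genes lay above. Those were the 2 genes without overlap. At levels under 1.5 ppm Eda2r rests on very few reads. Ccng1 was at 19, 6.72 and 16 ppm (-0.64 ± 0.35) and Aen at 54.4, 28.1 and 50.9 ppm (-0.32 ± 0.25), with limma adjusted p of 0.386 and 0.556. Trp53inp1 at 90.2, 31.2 and 94 ppm (0.57 ± 0.36, limma adjusted p = 0.464), Mdm2 at 123, 25.3 and 122 ppm (0.08 ± 0.51, 0.960) and Sesn1 at 120, 41.1 and 110 ppm (0.01 ± 0.34, 0.996) had 1 shape in common: N2_1 and N2_3 above all scramble libraries and N2_2 below all of them. Zmat3 was at 2.45, 3.11 and 3.4 ppm (0.10 ± 0.39, 0.925). The median of the 10 was -0.16, beside -0.23 for all genes. With median-of-ratios scaling the median of all genes moved to -0.04 and that of the 10 to 0.08.

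Library N2_2 carried the lowest value of 9 for 5 of the 10 genes, as it did for 33% of all genes. Without it, 5 of the 10 passed against scramble, 4 higher and 1 lower, where 7.99% of all genes passed higher and 7.51% lower. Mean levels of N2_1 and N2_3 were 2.12 times the scramble mean for Trp53inp1 (1.08 ± 0.13, limma adjusted p = 0.000700), 1.91 times for Btg2 (0.93 ± 0.07, 3.30e-05), 1.73 times for Mdm2 (0.83 ± 0.21, 0.0242) and 1.41 times for Sesn1 (0.49 ± 0.12, 0.0217). Cdkn1a was the lower one, at 11.0 ppm against 22.8 (-0.95 ± 0.22, limma adjusted p = 0.0179). Eda2r stayed short of the threshold (-1.44 ± 0.50, limma adjusted p = 0.0832), as did Phlda3 (-0.50), Ccng1 (-0.22), Aen (-0.03) and Zmat3 (0.08). Over the 17 alternatives the limma adjusted p of these 5 reached from 0.000700 to 0.754 for Trp53inp1, from 3.30e-05 to 0.328 for Btg2, from 0.0242 to 0.974 for Mdm2, from 0.0217 to 1 for Sesn1 and from 0.0137 to 0.980 for Cdkn1a. The calls thus rest on the 2 libraries N2_1 and N2_3, which were also the most alike pair of the table (r = 0.982).

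**Figure D3:**
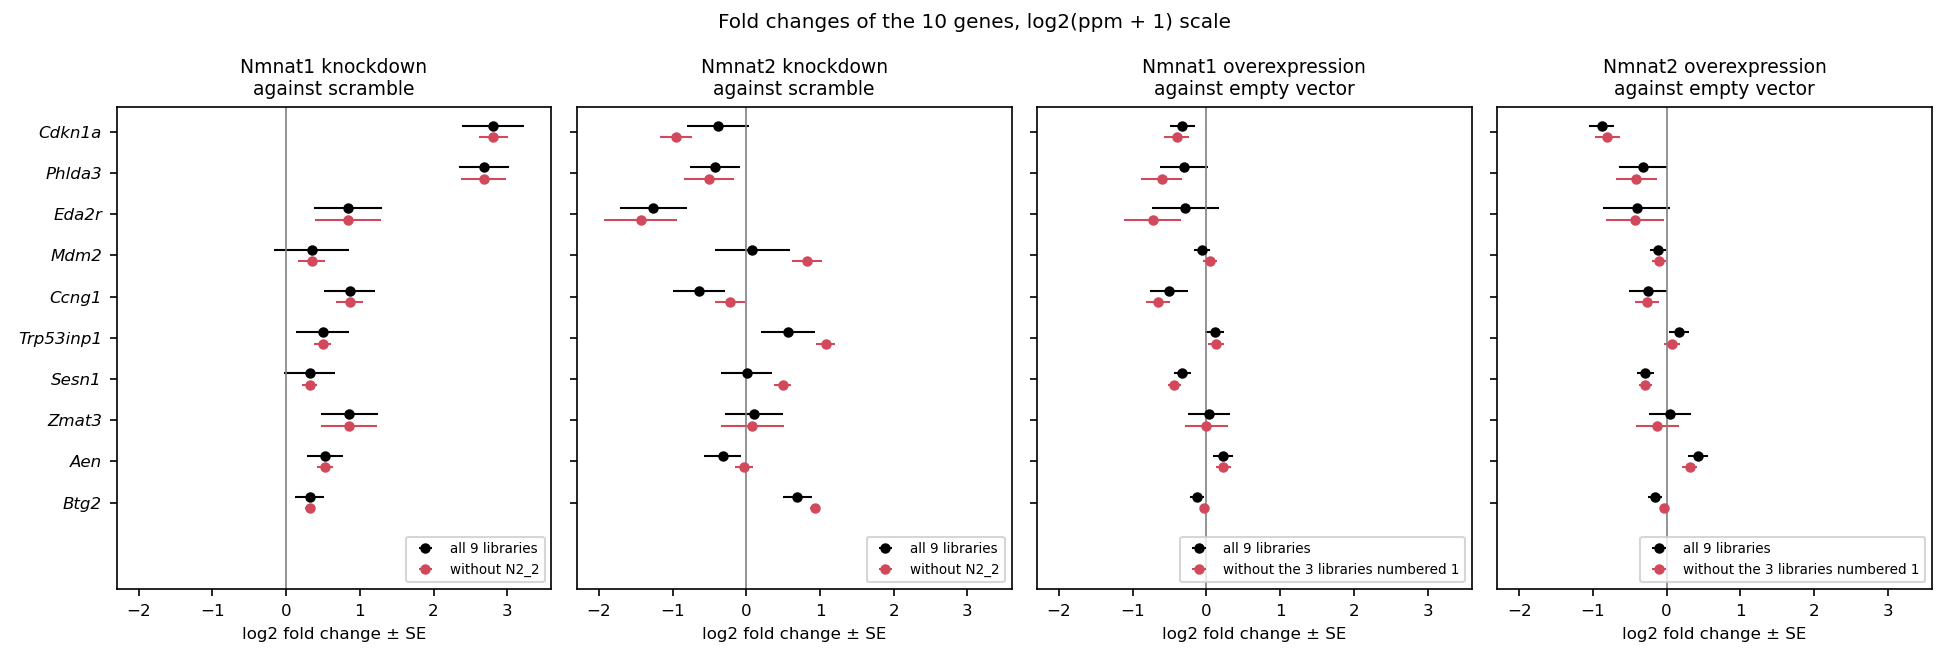
Log2 fold change of each gene against the control of its own table, with the standard error of the limma fit, on the log2(ppm + 1) scale; black points use all 9 libraries of a table, red points leave out N2_2 (knockdown) or the 3 libraries numbered 1 (overexpression). In Nmnat1 knockdown all points are right of 0, whereas in Nmnat2 knockdown leaving out N2_2 moves Mdm2 from 0.08 to 0.83 and Trp53inp1 from 0.57 to 1.08.

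Overexpression of either gene left most of the 10 near their empty vector levels, and Cdkn1a had the largest difference, a lower level under Nmnat2 overexpression. In limma 0 of the 10 passed in either arm, where 0.121% (Nmnat1) and 0.55% (Nmnat2) of all genes passed. An unadjusted p under 0.05 was reached by 1 gene under Nmnat1 overexpression (Sesn1) and by 3 under Nmnat2 overexpression (Cdkn1a, Aen and Sesn1). The arms share the empty vector libraries. Median fold changes of the 10 were -0.21 in both arms, beside -0.04 and 0.06 for all genes.

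In the overexpression table rod markers were 2954 to 3252 ppm with the empty vector, 2762, 1461 and 1407 under Nmnat1 and 1872, 1410 and 1399 under Nmnat2 overexpression, and cone markers (5 genes) were 253 to 320, 116 to 167 and 95.3 to 125 ppm. Of the cells that do not arise from the neural retina's progenitors, microglia (7 genes, sums of 5.30 to 20.6 ppm) and pigment epithelium (6 genes, 2.64 to 11.5 ppm) were near 0 in all 18 libraries, while endothelial markers (5 genes) summed to 15.7 to 141 ppm and astrocyte markers (5 genes) to 8.17 to 57.4 ppm. Of the endothelial markers Kdr was the highest in every library (7.81 to 120 ppm), whereas Pecam1, Cdh5 and Tie1 lay between 0.0333 and 6.47 ppm. Of the astrocyte markers Cxcl14 was the highest in every library (4.12 ppm or more), and Gfap was at most 3.65 ppm. Within the knockdown table the microglial sums were highest under Nmnat1 knockdown (13.6 to 20.6 ppm, with 8.42 to 11.7 in scramble). Here too the part of such shifts in the levels below was not tested.

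Cdkn1a was at 31.9, 34.2 and 26.7 ppm with the empty vector, 28.1, 25.4 and 20.2 ppm under Nmnat1 and 15, 18.1 and 15.8 ppm under Nmnat2 overexpression. All 3 Nmnat2 libraries lay below all empty vector libraries, whereas the Nmnat1 libraries overlapped them. The log2 fold changes were -0.33 ± 0.17 (limma adjusted p = 0.592) and -0.88 ± 0.17 (limma adjusted p = 0.0516), so the second was just short of the threshold. Without the libraries numbered 1 it was -0.80 ± 0.17 (limma adjusted p = 0.0286, with 0.00831 to 0.280 over 19 alternatives), where 3.53% of all genes passed lower. The ratio of means, empty vector over Nmnat2, was 1.90.

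Sesn1 was at 108, 113 and 107 ppm with the empty vector, 100, 84 and 78.4 ppm under Nmnat1 and 88.7, 96.1 and 84.3 ppm under Nmnat2 overexpression. It lay below every empty vector library in both arms, at -0.33 ± 0.11 (limma adjusted p = 0.339) and -0.29 ± 0.11 (0.397). Aen was higher instead: 47.7, 43 and 47.9 ppm with the empty vector, 55.4, 53.2 and 53.7 under Nmnat1 (0.22 ± 0.13, limma adjusted p = 0.686) and 75.5, 53.1 and 60.3 under Nmnat2 overexpression (0.43 ± 0.13, 0.257), above every empty vector library in both. Btg2 was at 541, 480 and 467 ppm with the empty vector and 438, 464 and 460 under Nmnat1 overexpression, the second gene with no overlap in that arm on the lower side (-0.12 ± 0.09, limma adjusted p = 0.784). Under Nmnat2 overexpression it was at 413, 470 and 454 ppm and overlapped. In each arm 1 gene thus lay above and 2 below every empty vector library, where 7.74% and 10.1% of all genes did so under Nmnat1 and 8.6% and 7.73% under Nmnat2 overexpression.

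Ccng1 was at 31.2, 22.7 and 24.4 ppm with the empty vector, 27.3, 16.7 and 12.6 under Nmnat1 and 26.2, 18.9 and 19.9 under Nmnat2 overexpression. In each group the library numbered 1 was the highest, and Nmnat1 libraries overlapped the controls (-0.50 ± 0.26, limma adjusted p = 0.594). Without those libraries Ccng1 (-0.66 ± 0.16, limma adjusted p = 0.0377) and Sesn1 (-0.44 ± 0.09, 0.0192) passed as lower under Nmnat1 overexpression, where 4.94% of all genes did. Over the 19 alternatives the adjusted p of Ccng1 ran from 0.0377 to 1.00 and that of Sesn1 from 0.0173 to 0.876. Phlda3 was at 1.81, 4.12 and 3.46 ppm with the empty vector, 2.46, 2.16 and 2.12 under Nmnat1 and 1.58, 2.25 and 2.95 under Nmnat2 overexpression, and Eda2r and Zmat3 were between 0.496 and 4.42 ppm in all 9 libraries. All groups overlapped for these 3. Mdm2 (96.6 to 124 ppm) and Trp53inp1 (62.6 to 89.5 ppm) differed by at most 1.43 times between the highest and the lowest library, and their largest fold change was 0.17 (Trp53inp1 under Nmnat2 overexpression).

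The 10 genes did not move as 1 block. Over the 9 libraries of the knockdown table, the 45 pairs of genes had Pearson's r from -0.56 to 0.96, with a median of 0.52 and 23 pairs over 0.5. Cdkn1a and Phlda3 (0.94) were high in the same 3 libraries, those of Nmnat1 knockdown, which were also the highest 3 for Ccng1, Zmat3 and Aen. Mdm2 and Sesn1 (0.96), and both with Trp53inp1 (0.88 and 0.87), had N2_1 and N2_3 at the top and N2_2 at the bottom. Cdkn1a had an r of -0.10 with Mdm2, -0.11 with Trp53inp1 and 0.03 with Sesn1. Without N2_2 the median r was 0.35 and 19 pairs were over 0.5 (8 libraries). In the overexpression table the median was 0.11, with 8 pairs over 0.5, from -0.83 (Cdkn1a with Aen) to 0.82 (Eda2r with Ccng1). Without the libraries numbered 1 (6 libraries) the median was 0.09, with 14 pairs over 0.5, from -0.92 to 0.90. The libraries of a group share their treatment and all values of a library share its scaling, so these correlations are descriptions and carry no p.

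**Figure D4:**
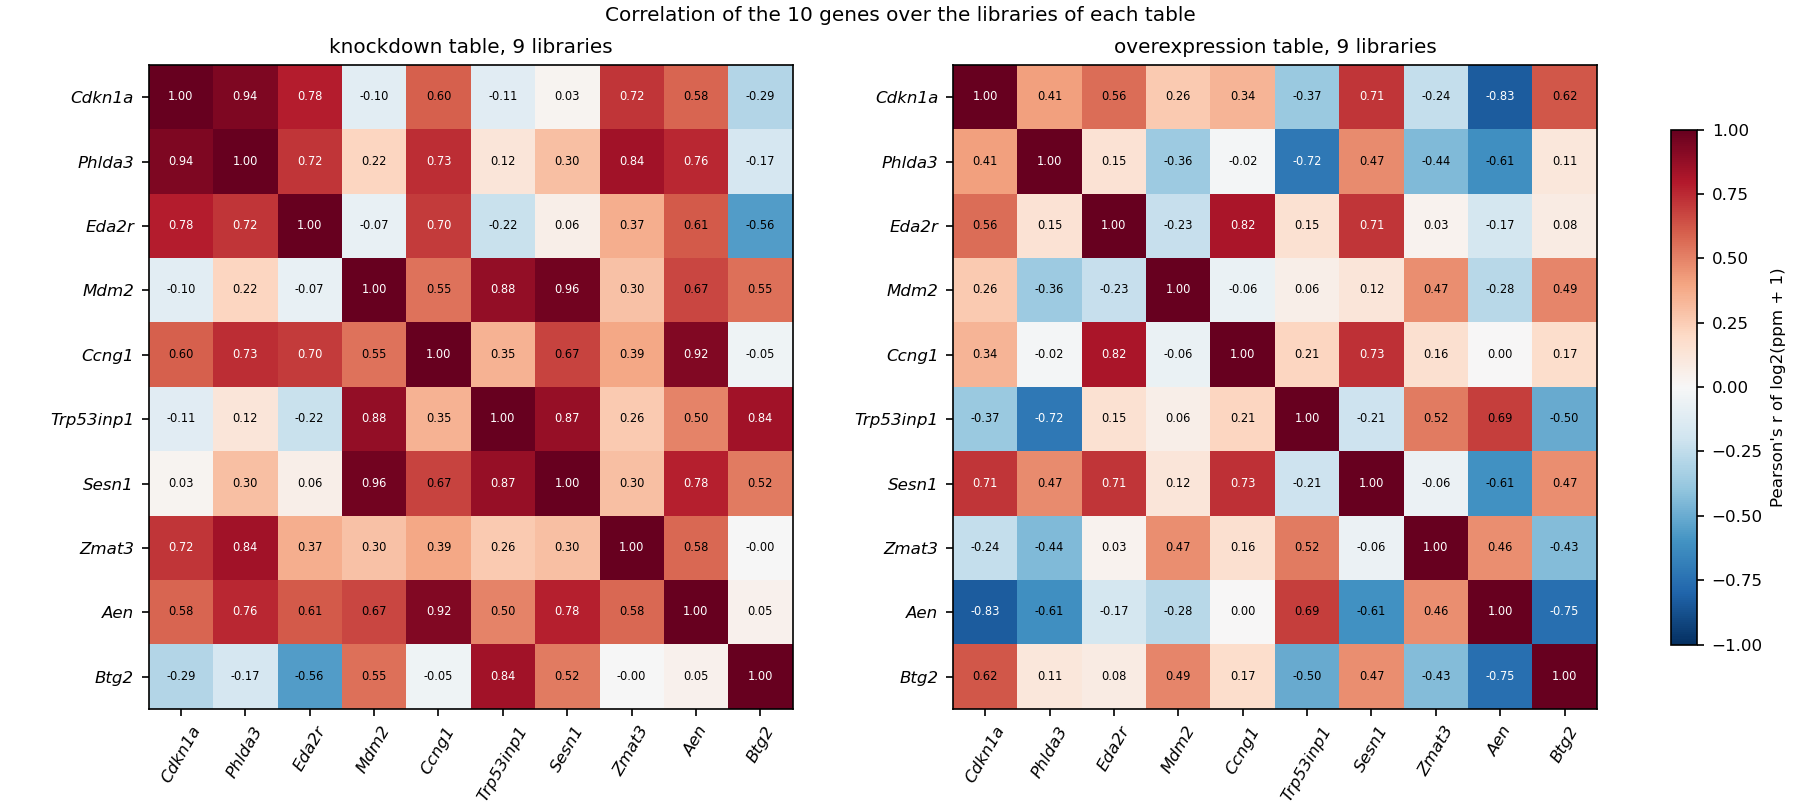
Pearson's r of log2(ppm + 1) for each pair of the 10 genes over the 9 libraries of the knockdown table (left) and of the overexpression table (right), from -1 (blue) to 1 (red). On the left Mdm2, Trp53inp1 and Sesn1 form a red block (0.87 to 0.96) that is pale against Cdkn1a (-0.11 to 0.03), and on the right Aen is blue against Cdkn1a (-0.83).

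Outside the 10, the genes most like Cdkn1a were ranked by r over all 18 libraries, centred within each table, among 11144 genes whose mean was 5 ppm or more in both tables. The first was Pnp, the purine nucleoside phosphorylase that also splits nicotinamide riboside (r = 0.94), at 191, 200 and 202 ppm in scramble, 333, 347 and 326 in Nmnat1 knockdown and 151, 219 and 148 in Nmnat2 knockdown libraries. As with Cdkn1a, N2_2 was above all scramble libraries and its 2 replicates were below. Tnfsf9, the ligand of the co-stimulatory receptor 4-1BB (0.92), Tmsb4x, which binds actin monomers (0.90), Insm1, a zinc finger factor of newborn neurons (0.90), and Gabarapl2, an autophagy adaptor (0.90), followed. Their r within the overexpression table alone ranged from 0.54 to 0.86, and within the knockdown table from 0.92 to 0.98.

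The rest of the pathway was read from 5 lists, described by counts and medians. Without N2_2 or the libraries numbered 1 many more of all genes passed in limma, so counts in these smaller sets are to be read against the following shares. They were 4.82% higher and 3.6% lower in Nmnat1 knockdown, 7.99% and 7.51% in Nmnat2 knockdown, 6.21% and 4.94% in Nmnat1 overexpression and 4.65% and 3.53% in Nmnat2 overexpression.

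Of the regulators of p53 and the damage kinases (Trp53, Mdm4, Atm, Chek1 and others), 0 of 14 passed in limma in either knockdown arm and 0 of 13 in either overexpression arm, with medians of 0.21, 0.17, 0.12 and 0.12 (Nmnat1 knockdown, Nmnat2 knockdown, Nmnat1 overexpression, Nmnat2 overexpression). Without N2_2, 4 of 14 passed as higher in Nmnat2 knockdown cells: Mdm4, the inhibitory partner of Mdm2 (1.14 ± 0.12, limma adjusted p = 0.000281), Trp53bp1, a scaffold at DNA breaks (0.98 ± 0.15, 0.00197), Hipk2, a kinase of p53 (0.78 ± 0.21, 0.0302), and Trp53 itself (0.45 ± 0.11, 0.0262). In the same setting Trp53bp1 passed as higher in Nmnat1 knockdown cells (0.59 ± 0.13). With all 9 libraries Mdm4 was at 0.82 ± 0.26 in Nmnat2 knockdown cells (limma adjusted p = 0.158). In N2_2 itself Trp53bp1 was at 25.8 ppm (scramble 46.2 to 62.8), Hipk2 at 27.9 (33 to 51.9) and Trp53 at 79.6 (85.6 to 102), each below every scramble library. Mdm4 was at 47.9 ppm in N2_2, above every scramble library (38.6 to 43.9). Without the libraries numbered 1, Hipk2 passed as higher under Nmnat1 (0.64 ± 0.09, limma adjusted p = 0.00506) and Nmnat2 overexpression (0.43 ± 0.09, 0.0300), and the acetyltransferase gene Ep300 as lower under Nmnat2 overexpression (-0.36 ± 0.08, 0.0339). The libraries left out went the other way. In library 1 Hipk2 was at 56.3 (Nmnat1) and 60.5 ppm (Nmnat2), below every empty vector library (64.2 to 71.6). Ep300 was at 69.2 ppm in library 1 of Nmnat2 overexpression, above every empty vector library (55.6 to 63.5).

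Of 17 other p53 targets of arrest, repair and metabolism, 0 passed in either knockdown arm with all libraries. In both overexpression arms 1 passed as higher, Plk2, a kinase of centriole duplication that p53 and neuronal activity both induce. It was at 19.3, 25.1 and 22 ppm with the empty vector, 59.7, 58.2 and 61 under Nmnat1 (1.40 ± 0.13, limma adjusted p = 0.00318) and 55.6, 48.7 and 48.1 under Nmnat2 overexpression (1.17 ± 0.13, 0.0133). Every overexpression library was thus far above the empty vector libraries. Medians of the list were -0.27, -0.24, -0.01 and 0.02, and in Nmnat1 knockdown cells 13 of the 17 had a fold change below 0.

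Without N2_2, 1 of these 17 passed as higher and 2 as lower in Nmnat1 knockdown cells: Xpc, which recognises DNA damage (0.91 ± 0.15), and Plk2 (-0.91 ± 0.15) and Trp53i11 (-0.46 ± 0.10). In Nmnat2 knockdown cells 3 passed as higher, Xpc (0.98 ± 0.16, limma adjusted p = 0.00350), Plk2 (0.77 ± 0.16, 0.0119) and Trp53i11 (0.41 ± 0.11, 0.0311), and 1 as lower, Ckap2, a spindle protein (-1.36 ± 0.25, 0.00544). The library left out went the other way for all of these. In N2_2 Plk2 was at 9.78 ppm (scramble 33 to 44.9), Trp53i11 at 29.4 (128 to 145) and Xpc at 8.13 (16 to 19.8), each below every scramble library. Ckap2 was at 23.8 ppm in N2_2, above every scramble library (16.9 to 20.9). Plk2 and Trp53i11 thus lay on opposite sides of scramble in Nmnat1 knockdown and in N2_1 and N2_3, but not in N2_2. That difference between the arms was not itself tested. Without the libraries numbered 1, 3 passed as higher and 2 as lower under Nmnat1 overexpression. The higher ones were Trp53i11 (1.41 ± 0.06, limma adjusted p = 3.25e-05), Plk2 (1.30 ± 0.10, 0.000381) and Xpc (0.49 ± 0.11, 0.0285), and the lower ones Sesn2, a sestrin like Sesn1 (-0.73 ± 0.14, 0.0164), and Pmm1, a phosphomannomutase (-0.34 ± 0.06, 0.0160). Under Nmnat2 overexpression 2 passed as higher, Trp53i11 (1.38 ± 0.06, limma adjusted p = 4.12e-05) and Plk2 (1.01 ± 0.10, 0.00132). Trp53i11 depends on the libraries left out: it was at 138, 109 and 109 ppm with the empty vector and at 135, 297 and 277 ppm under Nmnat2 overexpression, so that library 1 of that arm lay within the empty vector range.

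No p53 target of cell death passed in limma with all libraries (0 of 9 in the knockdown and 0 of 10 in the overexpression comparisons), with medians of 0.12, -0.10, -0.14 and -0.04. Without N2_2, 1 of 9 passed as higher in Nmnat1 knockdown cells, Bax, which permeabilises mitochondria (0.34 ± 0.07), and 1 as lower in Nmnat2 knockdown cells, Tnfrsf10b, a death receptor (-1.22 ± 0.23, limma adjusted p = 0.00724). In N2_2 itself Tnfrsf10b was at 20.3 ppm, above every scramble library (12.3 to 14.8). Without the libraries numbered 1, 0 of 9 passed in either overexpression arm.

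Of the cell cycle genes that p21 lowers through the DREAM complex, 0 of 17 passed in any comparison with all libraries. Below 0 lay 16 of 17 in Nmnat1 knockdown, 15 in Nmnat2 knockdown, 10 in Nmnat1 overexpression and 14 in Nmnat2 overexpression cells (medians -0.68, -0.57, -0.12 and -0.27, beside -0.00, -0.23, -0.04 and 0.06 for all genes). Progenitors are the dividing cells of this tissue, and their summed markers were 177 to 183 ppm in the Nmnat1 knockdown libraries against 408 to 425 in scramble, and 549, 218 and 541 ppm in the Nmnat2 knockdown libraries. The part of that shift in the cell cycle list was not tested. Kif23, a kinesin of cytokinesis, was at -2.06 ± 0.39 under Nmnat1 knockdown and at -1.40 ± 0.39 (limma adjusted p = 0.123) under Nmnat2 knockdown. Its levels were 11.9, 6.39 and 6.35 ppm in scramble, 1.83, 0.83 and 0.871 in Nmnat1 knockdown and 2.19, 1.75 and 3.31 in Nmnat2 knockdown libraries. Nuf2 was at 7.53, 4.28 and 5.54 ppm in scramble and 0.551, 1.48 and 0.699 in Nmnat1 knockdown libraries. The knockdown levels of both genes are near the filter and rest on few reads. Without N2_2, 2 of 17 passed as lower in each knockdown arm, Kif23 and Nuf2 under Nmnat1 knockdown and Nuf2 and Top2a under Nmnat2 knockdown, and without the libraries numbered 1, 1 of 16 passed as lower under Nmnat2 overexpression, the mitotic kinase gene Aurka (-0.92 ± 0.23, limma adjusted p = 0.0496).

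Of the immediate early genes, 0 of 9 passed with all libraries. Egr1, a transcription factor induced by activity, came closest under Nmnat1 overexpression, at 63, 79.7 and 80.3 ppm with the empty vector and 46.3, 31.8 and 28.6 ppm (-1.06 ± 0.17, limma adjusted p = 0.0565). Without the libraries numbered 1, 4 of 9 passed as lower in that arm: Egr1 (-1.38 ± 0.09, limma adjusted p = 0.000162), Junb (-0.54 ± 0.10, 0.0120), Jun (-0.49 ± 0.09, 0.0152) and Fos (-0.38 ± 0.10, 0.0441). Under Nmnat2 overexpression Fos (0.83 ± 0.10, limma adjusted p = 0.00243) and Ier2 (0.50 ± 0.06, 0.00279) passed as higher and Nr4a1 (-0.88 ± 0.20, 0.0381) as lower. Without N2_2, Ier2 passed as lower and Dusp1, a phosphatase of MAP kinases, as higher in both knockdown arms, at -0.71 ± 0.08 and 1.00 ± 0.15 under Nmnat1 and at -0.51 ± 0.09 (limma adjusted p = 0.00479) and 0.64 ± 0.17 (0.0319) under Nmnat2 knockdown. In N2_2 itself Dusp1 was at 27 ppm (scramble 31.7 to 44.3) and Ier2 at 119 (233 to 269), both below every scramble library.

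**Figure D5:**
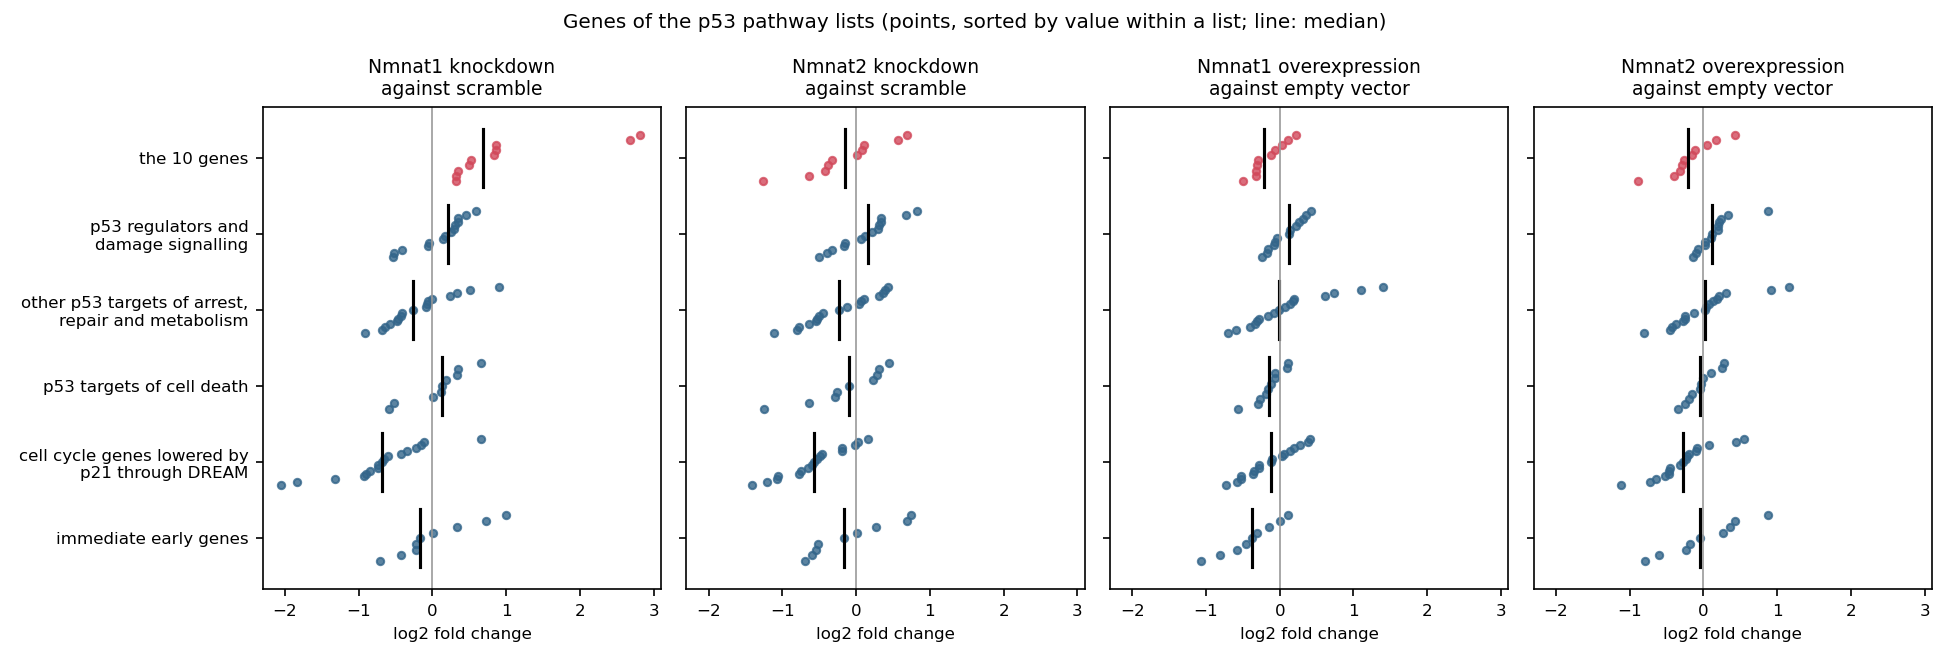
Log2 fold change of every gene of the 10 (red) and of the 5 pathway lists (blue) that passed the filter, sorted within a list, with the median as a black line; the panels are the 4 comparisons on 1 scale. In Nmnat1 knockdown the 10 genes have a median of 0.68, the other p53 targets -0.27 and the DREAM genes -0.68, and in the overexpression panels the point far right among the other p53 targets is Plk2 (1.40 and 1.17).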

How the data were processed

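The deposited tables hold 1 value per gene and library that the authors named TPM. Per the file headers each column is a library, but column sums were 14.4 to 29.6 times 1000000 (knockdown) and 17.3 to 26.2 times 1000000 (overexpression), and the values were therefore taken as a length-scaled signal of the authors, with the exact unit not stated in the sources used here. The submitters' processing notes name Salmon 0.11.3, sleuth 0.30.0 and GRCm38.p6, with no role for any of them. Per the labels' protocols, SMART-Seq v4 turned 1 ng of RNA into cDNA and Nextera DNA Flex made the libraries. The incomplete final line of both tables was dropped. Titles of 1 sample each in the Nmnat2 knockdown and Nmnat2 overexpression groups name Nmnat3, and their descriptions, which name Nmnat2, were followed. Column names in the knockdown table identify a group, not a sample.

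Values were divided by the column sum (ppm), and log2(ppm + 1) of genes past the filter (1 ppm in 3 libraries) entered limma 3.58.1 (R 4.3.3), with trend and empirical Bayes moderation and the 3 groups of a table in 1 fit. This scale understates the change of low genes. Tests were two-sided, with Benjamini-Hochberg adjustment over all genes of a comparison and a threshold of 0.05. The fit was tested on simulated data. No test crosses the tables. The 10 genes and the lists (p53 regulators, other p53 targets, p53 targets of death, DREAM genes, immediate early genes, markers of 12 cell types) were chosen with earlier results of these data known. Named were the 10, the genes of a list past the threshold (with all libraries, without N2_2 or without those numbered 1) and the 5 most like Cdkn1a. Where none of a list passed, the gene with the smallest p could be named, which was done for Mdm4, Kif23 and Egr1. Alternatives varied scaling, filter and pseudocount, and tried 2 groups only, no trend, array weights, each library left out and the replicate number as a term. Between 76.5% and 85.3% of low values in genes with 1 transcript lay within 0.1 of a whole read (20% by chance), which gave the depth. Coordinates are from GENCODE M21 (GRCm38), and promoters from RefSeq. Python 3.11.15 and matplotlib 3.10.9 served for description and figures.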

Additional observations from a re-analysis of the deposited data

How the results depend on the processing

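The number of the 10 genes past the threshold depended on the fit. In Nmnat1 knockdown (2) it was 1 without the filter, 1 with median-of-ratios scaling, 0 without the trend, 5 with 2 groups only, and 0 to 6 leaving out 1 library. In Nmnat2 knockdown (0) it was 1 with median-of-ratios scaling, 6 with array weights and 0 to 5 leaving out 1 library. In Nmnat1 overexpression (0) it was 1 with array weights and 2 without the libraries numbered 1. In Nmnat2 overexpression (0) it was 1 with quantile normalization, 1 with array weights, 1 with the replicate block, 1 without the libraries numbered 1, and 0 to 1 leaving out 1 library (1 without N1_1). Each of those calls was Cdkn1a. All genes past the threshold numbered 32 (0 to 1826), 97 (0 to 5101), 25 (2 to 1951) and 114 (3 to 1431) in the 4 comparisons, and in Nmnat2 knockdown 17 higher and 80 lower became 67 and 33 with median-of-ratios scaling. Of the single fold changes, 19 changed sign, all in genes past no threshold in the reported fit. In Nmnat2 knockdown these were Phlda3 (0.064, quantile normalization), Zmat3 (-0.050, array weights), and, leaving out 1 library, Zmat3 (-0.27 to 0.38), Mdm2 (-0.29 to 0.83) and Sesn1 (-0.27 to 0.49). In Nmnat1 overexpression they were Mdm2 (0.0029 with array weights, 0.045 without the libraries numbered 1), Zmat3 (-0.0018 without those, -0.058 to 0.17 leaving out 1 library) and Eda2r (-0.81 to 0.12 leaving out 1 library). In Nmnat2 overexpression it was Zmat3 (-0.11 with quantile normalization, -0.11 with array weights, -0.13 without the libraries numbered 1, -0.13 to 0.18 leaving out 1 library). The cause was not tested. Deviations of libraries with the same number in the overexpression table correlated at 0.03 to 0.46, and at -0.38 to 0.24 with other numbers. Not every library correlated best with its own number, so the numbers were not taken as pairs. The replicate block gave 0 of the 10 in Nmnat1 overexpression. Phlda3, Eda2r and Zmat3, at a few ppm, are limited by depth.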
